A study of Mus musculus with 15 samples.

Results

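Promoter contacts that were scored in the Early, Late and Reactivated groups and in no Basal library made up 469 of the 33334 distinct fragments of the table, which is 1.41%. A fragment here is a piece of the genome between cutting sites of the restriction enzyme HindIII, and each was listed with the promoter or promoters it contacted. A fragment was taken when it had a score in at least 1 Early, at least 1 Late and at least 1 Reactivated library and none in Basal 1, Basal 2 or Basal 3. The scores themselves chose these fragments, so their absence from Basal is a description, and Basal was tested against no other group. They were listed with 587 of the 4429 promoters, or 13.3%, in 686 listings of a promoter with a fragment.

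The libraries came from hippocampal nuclei of mice carrying ArcCreERT2 and an R26R-STOP-floxed yellow fluorescent protein, eYFP, labelled with genotype +/+ in every sample. In this line the promoter of the activity-regulated gene Arc drives a tamoxifen-dependent Cre, so 4-hydroxytamoxifen marks cells in which Arc is active. Each pool of 10 to 12 mice yielded about 10000 nuclei, which were stained for NeuN and GFP and sorted. There were 3 Basal, 4 Early, 4 Late and 4 Reactivated libraries, grouped by sample title.

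The protocol, which is the same text for every sample, states 4-hydroxytamoxifen 1 h before contextual fear conditioning and dark housing from 24 h before. Brains were taken either 1.5 to 2 h later or at day 5, when part of the mice had met the tone and context again. The labels do not say which of these belongs to Basal and give a foot shock for Basal samples too. Mouse age was not in the labels, and the table holds no expression values against which the neuronal sort could be checked. Every library is described as a pool of mice, and p-values measure the spread between libraries. They treat the libraries as independent, although several pairs share most of their fragments, as given below.

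In promoter-capture Hi-C, chromatin that lies close together in the nucleus is ligated and the pieces joined to chosen promoters are pulled out with RNA baits. Enhancers, which raise transcription from a distance, often lie near their target promoters in such maps, and contacts within a gene or with a neighbouring promoter are also frequent. Neurons that fire switch on Arc, Bdnf and other activity-regulated genes, many through the cyclic AMP response element, AP-1 sites and EGR sites. In a bulk library, fewer nuclei with a contact and a rarer contact in each nucleus cannot be told apart.

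The promoters of 3 of the genes the results return to are shown first, because a search for short activity-related motifs found a match in each. Skp1a had a fragment in the top few percent of scores in all 3 groups, Phip had 4 fragments, and Chpf shared a fragment with Resp18, which also had 4. Each run is the 250 bases before the transcription start, read 5′ to 3′ on the gene's strand from RefSeq on build GRCm38.p6. That build differs from the mm9 build of the fragment positions. Capitals mark the matched motif, which is the cyclic AMP response element TGACGTCA in Skp1a and Chpf and the EGR motif GCGGGGGCG in Phip.
Skp1a, listed by RefSeq as Skp1, chr11:52231745-52231994, plus strand: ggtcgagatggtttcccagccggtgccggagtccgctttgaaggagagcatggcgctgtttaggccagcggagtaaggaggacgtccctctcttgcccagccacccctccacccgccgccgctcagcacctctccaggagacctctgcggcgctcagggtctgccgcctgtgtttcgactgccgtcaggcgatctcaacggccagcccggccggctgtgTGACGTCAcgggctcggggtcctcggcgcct
Chpf, chr1:75479472-75479721, minus strand: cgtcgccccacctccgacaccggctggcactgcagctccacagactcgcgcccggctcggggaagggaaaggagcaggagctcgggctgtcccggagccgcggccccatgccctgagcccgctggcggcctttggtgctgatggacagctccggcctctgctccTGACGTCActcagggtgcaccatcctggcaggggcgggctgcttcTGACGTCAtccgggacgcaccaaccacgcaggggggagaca
Phip, chr9:82975490-82975739, minus strand: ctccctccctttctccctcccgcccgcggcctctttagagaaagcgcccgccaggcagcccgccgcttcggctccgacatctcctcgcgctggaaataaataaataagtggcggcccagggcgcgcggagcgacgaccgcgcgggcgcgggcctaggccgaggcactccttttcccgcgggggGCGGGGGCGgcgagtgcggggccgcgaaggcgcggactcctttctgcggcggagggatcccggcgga
Chpf held the cyclic AMP response element at 2 places and Skp1a at 1.

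RefSeq windows of 250 bases before to 50 after the start were found for 438 of the 587 promoters. TGACGTCA was present in 24 of these 438 genes, or 5.48%, and in 121 of the 3379 listed genes with a window, or 3.58%. The EGR motif, searched as GCGTGGGCG and GCGGGGGCG, was present in 38 genes or 8.68%, against 281 or 8.32% of all listed genes. AP-1, searched as TGACTCA and TGAGTCA, was present in 14 genes or 3.20%, against 4.26% of all. A core motif of the loop-anchoring factor CTCF was present in 2 genes, or 0.457%, and in 5 of all, or 0.148%. The YY1 motif stood at 0.913% against 1.18% and the NRF1 motif at 1.14% against 1.60%. Both strands were searched and a match is a description of the letters only. TGACGTCA and the CTCF core stood above the share of all listed genes, AP-1, YY1 and NRF1 below it and EGR close to it, and no difference was tested.

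The libraries differed widely in size. They listed from 32 fragments in Reactivated 1 and 335 in Reactivated 2 to 10514 in Reactivated 4, with summed scores of 3097 to 8218430. Where 2 libraries of a group had 40% or more of the smaller one's fragments in common, they were joined as a set, which gave 9 sets. Basal 1 with 2, Early 3 with 4, Late 1 with 2, Late 3 with 4, Reactivated 1 with 2 and Reactivated 3 with 4 formed pairs, and the 3 other libraries stood alone. The overlap was 91.3% between Basal 1 and 2 and 16.4% between Basal 1 and 3. Scores were used as deposited, and the median score of a library ran from 11 to 310. It went with the number of listed fragments within groups, but not in the same direction in each. In Early it fell from 155 in Early 2 with 1500 fragments to 64 in Early 1 with 6077. Late 3 and 4 listed 7165 and 7224 fragments with medians of 160 and 100. Late 1 and 2 listed 2995 and 3256 with medians of 18 and 19. In Reactivated 1 to 4 the medians were 73, 11, 304 and 310. Basal 3 listed 5259 fragments with a median of 13, and Basal 1 listed 3903 with a median of 302.

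Most of the 469 contacts were seen in the large libraries. Early 1 to 4 scored 230, 83, 245 and 224 of them, Late 1 to 4 scored 61, 59, 367 and 394, and Reactivated 1 to 4 scored 0, 13, 442 and 446. Within a library they were between 1.81% and 5.53% of the listed fragments, apart from Reactivated 1 with none. Reactivated 3 or 4 held 463 of the 469 and Late 3 or 4 held 409. All of Late 3, Late 4, Reactivated 3 and Reactivated 4 scored 317 of them. Presence in Late and in Reactivated therefore rested mainly on 1 pair of libraries in each group, and its dependence on library size was not tested.

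**Figure D1:**
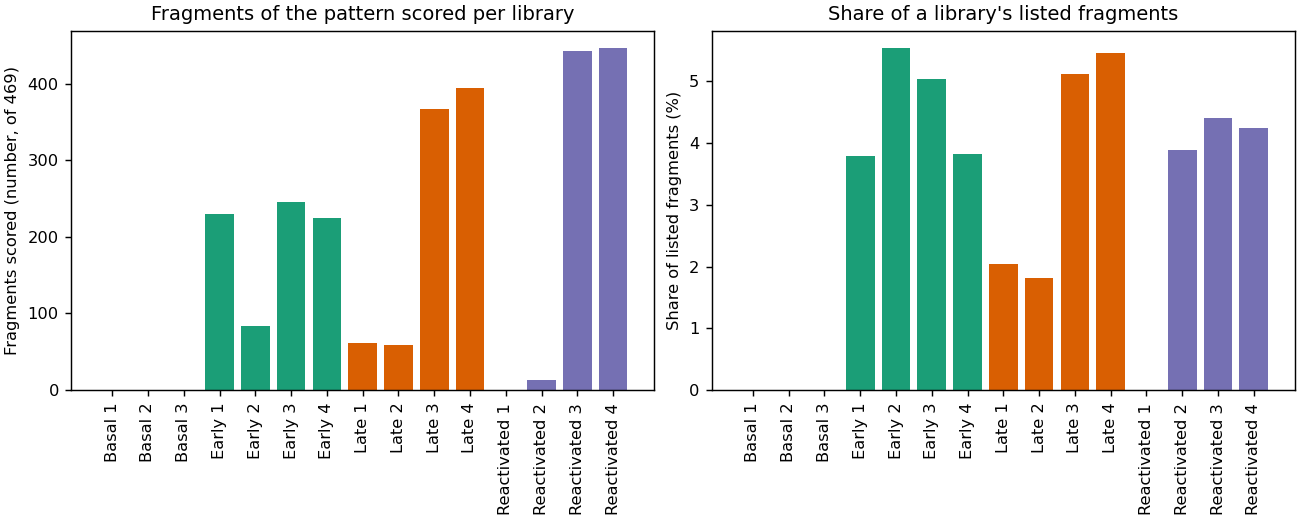
Number of the 469 fragments scored in each of the 15 libraries (left, number) and their share of all fragments that library lists (right, percent), coloured by group. The 4 tallest bars on the left are Late 3 and 4 with 367 and 394 and Reactivated 3 and 4 with 442 and 446, and the Basal bars are empty because the rule requires it.

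A contact was typically scored in 5 of the 12 Early, Late and Reactivated libraries. Of the 469, 2 had a score in 3 libraries, 74 in 4, 204 in 5, 112 in 6, 54 in 7, 17 in 8, 4 in 9 and 2 in 10, and none in more. Counted by set, 352 or 75.1% were present in 3 sets, the fewest that the rule allows, and 6 were present in 6 of the 7 sets. The commonest make-up, with 156 fragments, was 1 Early, 2 Late and 2 Reactivated libraries, followed by 96 fragments with 2 of each. All 4 Early libraries scored 12 fragments, all 4 Late libraries 12 and all 4 Reactivated libraries 0.

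The same pattern with another group left out was of similar size. Fragments scored in the 3 other groups and not in Early numbered 355, those not in Late 455, those not in Reactivated 584, and 373 fragments were scored in all 4 groups. With at least 2 libraries required in each scored group, 168 of the fragments without Basal remained, against 91 without Early, 82 without Late and 76 without Reactivated. Basal has 3 libraries and the other groups 4, and the requirement falls on other libraries in each pattern, so these counts are not matched for depth.

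**Figure D2:**
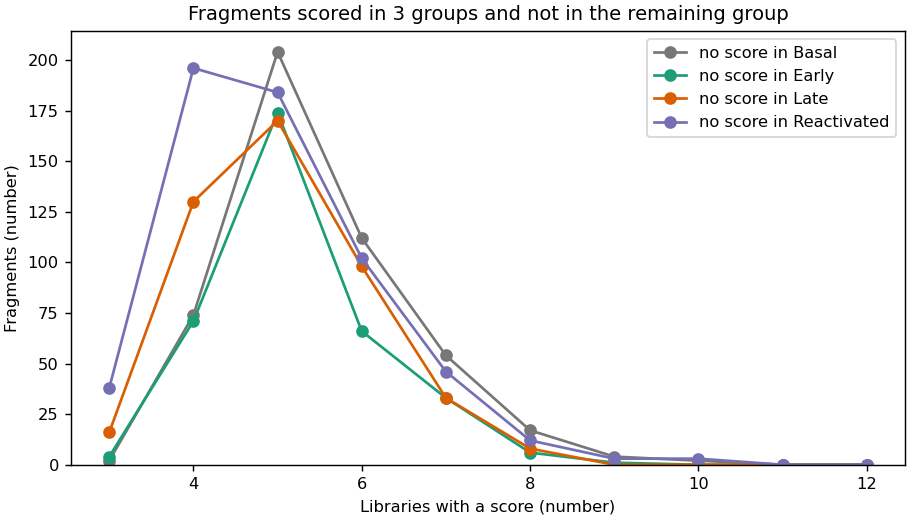
Number of fragments (vertical axis) by the number of libraries with a score (horizontal axis) for the 4 patterns in which a single group has none. The curve without Basal peaks at 204 fragments in 5 libraries, and the curve without Reactivated peaks at 196 fragments in 4.

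The members ranked in the middle of their libraries. Their median score was 89, 230, 130 and 84 in Early 1 to 4, 23, 22, 195 and 113.5 in Late 1 to 4, and 53, 457.5 and 511 in Reactivated 2 to 4. As a percentile of the library's own scores the median fell between 52.4 and 65.4. Fragments scored in all 4 groups had median percentiles between 63.9 and 86.7 in the same libraries. In each of these 11 libraries the fragments without Basal ranked below those scored in all 4 groups. Ranks of the patterns missing another group are not given here, so the lower rank cannot be tied to Basal.

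**Figure D3:**
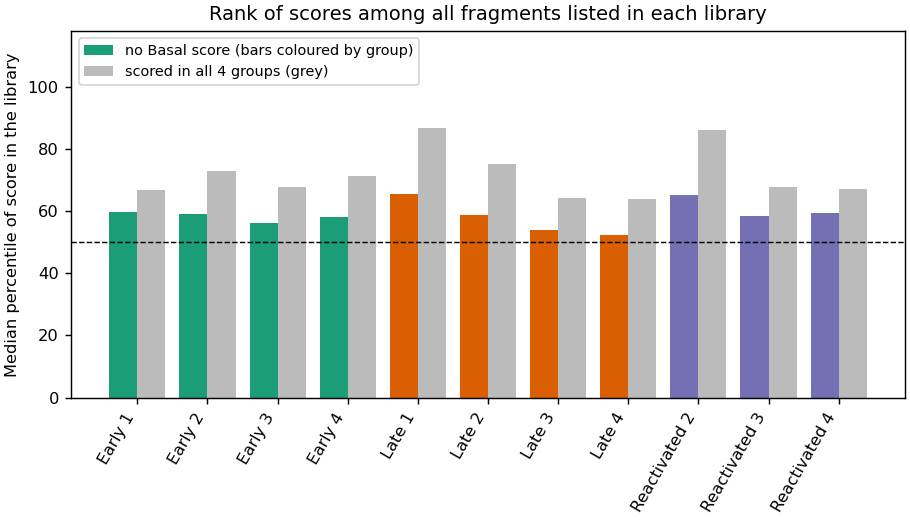
Median percentile of the score within each library (vertical axis, 100 is the highest score) for the fragments without a Basal score (coloured) and those scored in all 4 groups (grey), with a dashed line at 50. The coloured bars lie between 52.4 and 65.4 and each is shorter than its grey neighbour, which lie between 63.9 and 86.7.

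Scores of the same contact followed each other closely inside a pair of libraries and loosely outside it, whether or not the libraries were of the same group. Over the fragments scored in both libraries, Spearman's rho was 0.959 in Early 3 and 4 (204 fragments), 0.980 in Late 3 and 4 (352 fragments) and 0.990 in Reactivated 3 and 4 (425 fragments). Over 24 pairs of libraries of different groups with at least 50 shared fragments, rho ran from -0.13 to 0.54 with a median of 0.25. Late 3 against Reactivated 3 gave 0.246 over 345 fragments. Within the Early group but outside a pair, Early 1 gave 0.326 with Early 3 over 67 fragments and 0.345 with Early 4 over 61. Over all fragments of the table Early 3 and 4 gave 0.958 and Late 3 with Reactivated 3 gave 0.226, close to the values over the 469. These points share libraries and depth, so the values are given without a test.

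A score in each group could be very low. The highest score of the weakest of the 3 groups was under 5 for 54 fragments, 5 or more for 415 and 100 or more for 137, with a median of 38. At the edge, a fragment of Hs3st2, a heparan sulphate sulphotransferase gene, scored 4 in Early 3, 8 and 3 in Late 3 and 4, and 4 and 5 in Reactivated 3 and 4. Just outside the rule, fragments of Ccdc138, of Degs1 with Srp9 and of Napa with Slc8a2 had a single Basal score, 4 in Basal 3. Of the 373 fragments scored in all 4 groups, 158 owed their Basal score to Basal 3 alone, and 6 had a highest Basal score of 5 or less.

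The fragments named first come from the 12 with scores in the most libraries, 1 per promoter, with ties settled by the mean score on the asinh scale, which is near-logarithmic at these sizes. Ttll3 encodes an enzyme that adds glycine to tubulin, and its fragment at chr6:113332953-113334635 was scored in 10 libraries. Early 1 to 4 scored 354, 1191, 299 and 203, Late 1 to 4 scored 1616, 2103, 694 and 519, and Reactivated 3 and 4 scored 647 and 859. The 3 groups overlapped, with no score in Reactivated 1 and 2. Gxylt1, which adds xylose to glucose on Notch, also had 10, at chr15:93106597-93116706. Its scores were 79, 478, 230 and 135 in Early 1 to 4, 319, 421, 387 and 276 in Late 1 to 4, and 427 and 552 in Reactivated 3 and 4. This fragment abutted another Gxylt1 fragment that did carry a Basal score.

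Skp1a, an adaptor subunit of SCF ubiquitin ligases, had the fragment chr11:52047042-52050528 and the promoter printed above. Early 1 to 4 scored 496, 2494, 1051 and 618, Late 3 and 4 scored 2473 and 1804, and Reactivated 2 to 4 scored 643, 4233 and 4839. Its mean percentile over the libraries of a group that scored it was 98.7 in Early, 99.3 in Late and 98.3 in Reactivated. No other member had as high a lowest percentile, and Late 1, Late 2 and Reactivated 1 gave it no score.

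Nfatc3, a transcription factor that calcineurin sends to the nucleus, had a fragment at chr8:108579860-108581534 with scores of 334, 54, 120 and 82 in Early 1 to 4, 15, 1248 and 894 in Late 2 to 4, and 3916 and 4421 in Reactivated 3 and 4. Its scores in Reactivated 3 and 4 exceeded every Early and Late score, while Reactivated 1 and 2 had none. Kcnq3 encodes a subunit of the M-current potassium channel, and 2 abutting fragments met the rule. The one at chr15:66115964-66116774 scored 175, 1439, 630 and 296 in Early 1 to 4, 772 and 491 in Late 3 and 4, and 1394 and 1548 in Reactivated 3 and 4. Its neighbour at chr15:66115748-66115961 scored 86 in Early 1, 1081 and 733 in Late 3 and 4, and 6238 and 7354 in Reactivated 3 and 4. The last value is the highest score of any of the 469, and the neighbour in turn abutted a Kcnq3 fragment with a Basal score.

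The protocadherin gene Pcdh11x had a fragment at chrX:117406315-117408095 with 650, 403, 2946 and 1508 in Early 1 to 4, 1606 and 1099 in Late 3 and 4, and 1114 and 1331 in Reactivated 3 and 4. Adam29, of the ADAM family of membrane proteins, scored 480, 3905, 571 and 290 in Early, 3039 and 1902 in Late 3 and 4, and 870 and 908 in Reactivated 3 and 4 at chr8:58397681-58403852. In both, Late 1 and 2 and Reactivated 1 and 2 were empty. The Early scores of each spanned its scored Reactivated values, and the Adam29 scores in Late 3 and 4 lay above those in Reactivated 3 and 4.

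Ero1l encodes an enzyme that forms disulphide bonds in the endoplasmic reticulum. Its fragment at chr14:45940903-45942949 scored 491 and 185 in Early 1 and 4, 1935, 2054, 1865 and 1243 in Late 1 to 4, and 3262 and 3078 in Reactivated 3 and 4. All 4 Late libraries lay above all 4 Early libraries.

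Also scored in many libraries were Flywch1 and Zfp59, both zinc-finger genes, and Ubfd1, a gene with a ubiquitin-like domain. Flywch1 at chr17:23895805-23902396 scored 224, 861 and 385 in Early 1 to 3, 1347, 1531, 433 and 279 in Late 1 to 4, and 1083 and 1130 in Reactivated 3 and 4. Zfp59 at chr7:28622515-28623924 scored 456, 184 and 96 in Early 2 to 4, 1447, 1656, 533 and 351 in Late 1 to 4, and 388 in Reactivated 2 alone. Ubfd1 at chr7:129212009-129214450 scored 270, 533, 812 and 456 in Early 1 to 4, 768 and 660 in Late 3 and 4, and 97 and 153 in Reactivated 3 and 4. Zfp59 was unusual in missing both large Reactivated libraries, and the Ubfd1 scores in Reactivated all lay below the Early ones.

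**Figure D4:**
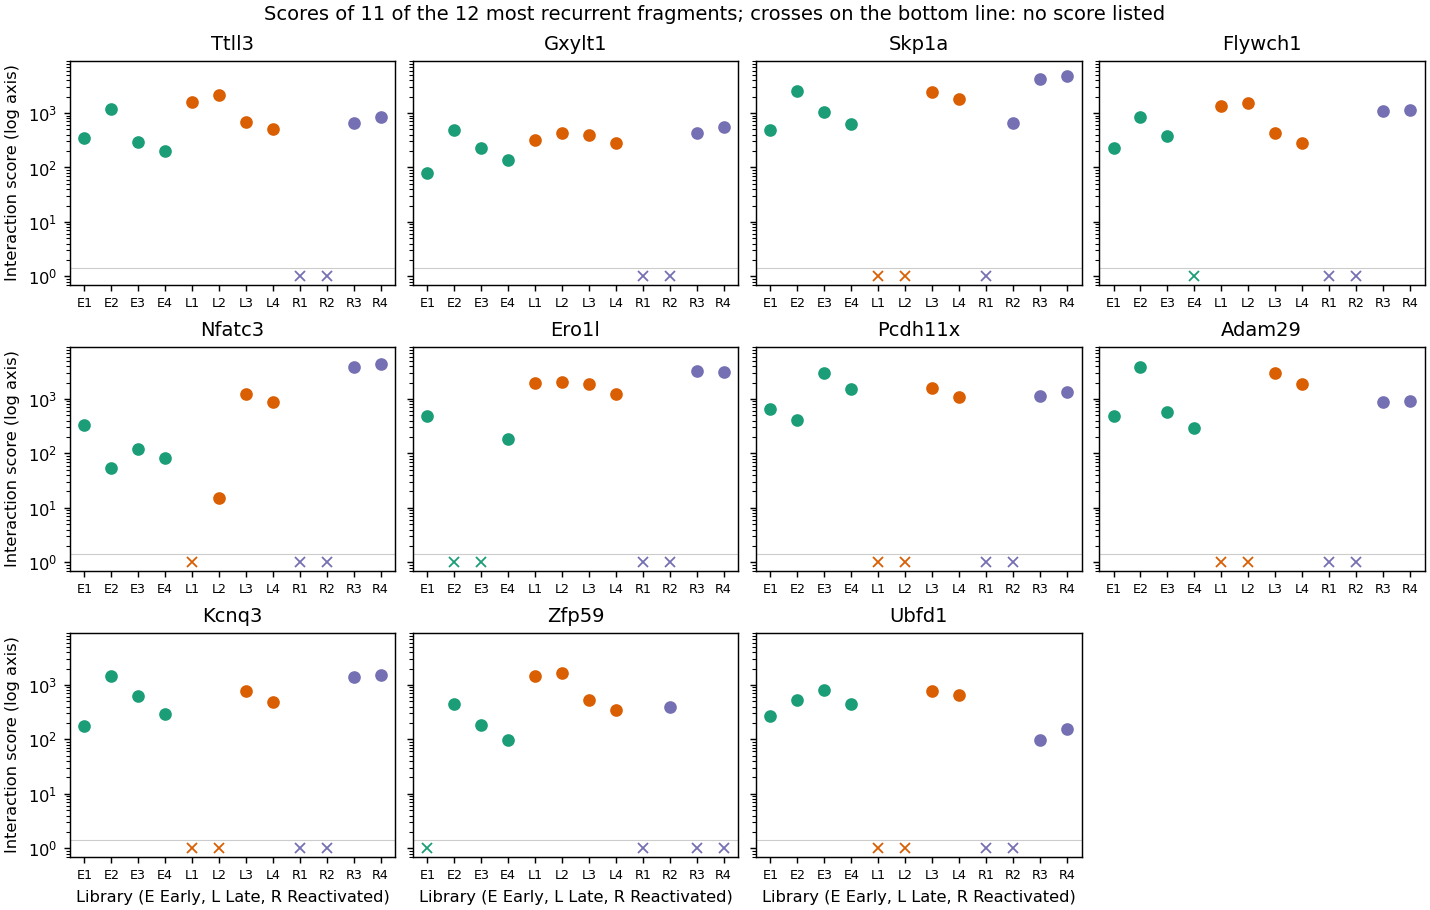
Interaction score (vertical log axis) of 11 of the 12 most recurrent fragments in each Early (E), Late (L) and Reactivated (R) library, 1 panel per promoter. Crosses on the bottom line mark libraries with no score, which include Reactivated 1 in every panel and both Late 1 and Late 2 in 5 of the 11 panels.

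Ranking within libraries gave a partly different view. For 116 of the 469 the mean percentile over the scoring libraries was above the library median in all 3 groups, for 68 it was below it in all 3, and 20 stood above the 75th percentile in all 3. These 20 were picked out after their values were seen and included Atmin, a cofactor of the ATM kinase, Kcnip4, a potassium channel-interacting protein, Cat, catalase, and Twist1, a developmental transcription factor. Atmin at chr8:119468235-119468601 scored 1181, 1141, 1921 and 1129 in Early 1 to 4, 3848 and 2624 in Late 3 and 4, and 594 in Reactivated 2. Cat at chr2:103327424-103330488 scored 549 in Early 1, 819 and 547 in Late 3 and 4, and 4266 and 4672 in Reactivated 3 and 4. The highest mean percentile fell in Early for 155 fragments, in Late for 134 and in Reactivated for 180.

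Several promoters held more than 1 of the fragments. Of the 587 promoters, 502 had 1 fragment, 76 had 2, 6 had 3, 2 had 4 and 1 had 6. The 6 belonged to Slc25a37, the mitochondrial iron importer mitoferrin-1, and were 6 of its 35 listed fragments, spread over 218.5 kb of chromosome 14. A Basal score was present on 9 of the 35. The strongest, chr14:69898184-69899825, scored 277, 140 and 84 in Early 1, 3 and 4, 1304 and 901 in Late 3 and 4, and 3668 and 4204 in Reactivated 3 and 4. The weakest by its top score, chr14:69922799-69933563, scored 25 in Early 1, 8 in Late 4, and 9 and 25 in Reactivated 3 and 4. These 2 fragments of a single promoter differed by over 100 times in Late 4, Reactivated 3 and Reactivated 4.

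Phip, a bromodomain protein that binds the insulin receptor substrate, had 4 of its 37 listed fragments within 15.4 kb, and 15 of the 37 carried a Basal score. Next to each other lay 3 of the 4, from chr9:82857555 to 82863535. The middle one, chr9:82860061-82861001, scored 80, 306 and 165 in Early 1, 3 and 4, 319 and 198 in Late 3 and 4, and 798 and 757 in Reactivated 3 and 4. The fourth, chr9:82871517-82872965, was also listed with Hmgn3 and Lca5 and scored 1456 and 802 in Early 3 and 4, 306 and 178 in Late 3 and 4, and 4364 and 5052 in Reactivated 3 and 4.

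Resp18, a protein of endocrine and neuronal secretory granules, had 4 of its 9 listed fragments in the pattern and none with a Basal score. Its fragment chr1:75561054-75562201, listed also with Chpf and with Ptprn, another secretory granule protein, scored 135 and 84 in Early 3 and 4, 382 and 280 in Late 3 and 4, and 523 and 637 in Reactivated 3 and 4. The stress kinase gene Mapk9, which encodes JNK2, had 3 of 14 and likewise no Basal score, and all 3 were shared with neighbours such as Cnot6. Of its fragments, chr11:49663787-49668554 scored 460 and 308 in Early 3 and 4, 21, 495 and 399 in Late 1, 3 and 4, and 139 and 209 in Reactivated 3 and 4. Eif4enif1, which carries the cap-binding protein eIF4E into the nucleus, had 3 of 12, and their scores ran from 2 to 29. Parp8, of the ADP-ribosyltransferase family, had 3 of 24.

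A promoter's number of listed fragments went with its chance of holding such a contact. Promoters with a fragment of the pattern had a median of 11 listed fragments and the others 6. The share with a fragment was 4.29% for promoters with 1 to 4 listed, 12.0% with 5 to 9, 20.7% with 10 to 19 and 39.2% with 20 or more. Counts per gene list below are set against the share of all promoters and are not adjusted for this. A Basal score elsewhere was present for 506 of the 587 promoters, or 86.2%, against 72.1% of all promoters, so 81 had none. These shares are likewise not adjusted for the number of listed fragments.

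Many of the contacts lay beside fragments that were scored in Basal. Among the 295 fragments listed with a single promoter, 258 had a Basal-scored fragment of that same promoter, at a median gap of 15.9 kb. The gap was at most 10 kb for 107, or 36.3%, and at most 50 kb for 189. The 2 fragments abutted, with a gap of 3 bp or less, in 33 cases, including Gxylt1, the activin and TGF-beta effector Smad3 and the enkephalin precursor Penk. In the mirrored patterns the median gap to a fragment scored in the missing group was 15.7 kb for Early, 24.8 kb for Late and 32.5 kb for Reactivated. Positions of the baits were not used here, so the distance from promoter to fragment was not analysed here.

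Fragments listed with several promoters were frequent. They made up 174 of the 469, or 37.1%, against 7.76% of all fragments, 42.9% of those scored in all 4 groups, and 36.6%, 30.1% and 25.7% of those missing from Early, Late and Reactivated alone. Such a fragment carried the same score in every listing, so its score cannot be given to a single promoter. The fragment with most promoters, chr3:95871845-95872960, was listed with the histone genes Hist2h2aa2 and Hist2h3b, the deubiquitinase gene Otud7b, the splicing factor gene Sf3b4, the synaptic vesicle gene Sv2a and the trafficking gene Vps45. It scored 38, 3 and 7 in Early 1, 3 and 4, 1313 and 1062 in Late 3 and 4, and 85 and 122 in Reactivated 3 and 4. Of 166 such fragments whose genes were all found in the annotation, 90 or 54.2% joined genes within 5 coding genes of each other, against 51.9% of those scored in all 4 groups and 41.6% of all fragments with several promoters.

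In length the fragments had a median of 2722 bp, with quartiles of 1352 and 5011 bp, against 2939 bp over all fragments and 3315 bp for those scored in all 4 groups. By chromosome, leaving aside Y with its single listed fragment, the share ran from 0.976% on chromosome 12 to 2.30% on chromosome 11, where 48 of 2084 fragments met the rule. Abutting pairs in which both fragments met the rule numbered 9. One lay at the neuropeptide Y receptor genes, where chr8:69212699-69213182, listed with Npy5r, scored 246 in Early 2, 3328 and 2360 in Late 3 and 4, and 2229 and 2726 in Reactivated 3 and 4. The next fragment, chr8:69213185-69214435, was listed with Npy1r and Npy5r and scored 9 and 11 in Early 3 and 4, 74 and 48 in Late 3 and 4, and 314 and 369 in Reactivated 3 and 4. Neighbouring pieces of 1 locus thus drew on different Early libraries.

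Gene lists chosen for neuronal and household functions were described by how many of their promoters held a fragment, against 587 of 4429 or 13.3% of all promoters. The activity-regulated list had 5 of 34. Bdnf had 0 of its 14 listed fragments. Arc had 0 as well, and how many fragments were listed with Arc is not given here. Nr4a3, a nuclear receptor induced by activity, scored 19, 153 and 91 in Early 1, 3 and 4, 49 and 42 in Late 3 and 4, and 65 and 75 in Reactivated 3 and 4 at chr4:48059086-48071527. The transcription factor gene Mafg shared with Fam195b a fragment that scored 176 and 104 in Early 3 and 4, 155 and 141 in Late 3 and 4, and 1502 and 1660 in Reactivated 3 and 4. Homer1, Btg1 and Pcsk1 made up the 5. The share of 14.7% is near that of all promoters.

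Synaptic lists lay close to the same share. Glutamate receptor promoters had 4 of 26, among them the AMPA subunit Gria2, the NMDA subunit Grin2b and the AMPA auxiliary subunit Cnih2. Grin2b at chr6:136114324-136115260 scored 210 in Early 1, 800 and 597 in Late 3 and 4, and 459 in both Reactivated 3 and Reactivated 4. Cnih2 had 2 fragments, and the one at chr19:5109813-5113404 scored 82 and 46 in Early 3 and 4, 101 and 78 in Late 3 and 4, and 507 and 571 in Reactivated 3 and 4. Inhibitory genes had 2 of 22, including the calcium-buffer gene Pvalb, and postsynaptic signalling genes 2 of 18 with the calcium-dependent kinase Camk4 and the calcineurin subunit Ppp3r1. Presynaptic vesicle genes had 4 of 28, which were Unc13b, Rab3a, Rab3b and Sv2a. Rab3b, a vesicle GTPase, shared its fragment at chr4:108649163-108656677 with Btf3l4 and scored 330, 27 and 18 in Early 1, 3 and 4, 145 and 191 in Late 1 and 2, and 431 and 407 in Reactivated 3 and 4. It was among the 60 fragments whose Late score came from Late 1 or 2 only.

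Ion channels had 5 of 42, namely Kcnq3, Kcnip4, Kcnq5, Kcna6 and the calcium channel subunit Cacna2d1. Kcnip4 at chr5:49908084-49913337 scored 275, 701 and 386 in Early 1, 3 and 4, 1275 and 963 in Late 3 and 4, and 1583 and 2018 in Reactivated 3 and 4. Adhesion and guidance genes had 5 of 55, with Pcdh11x, Pcdh8, Sema5b, Nrp2 and Efnb3. The protocadherin gene Pcdh8 shared with Elf1 a fragment that scored 454 and 245 in Early 3 and 4, 1801 and 1166 in Late 3 and 4, and 3146 and 3678 in Reactivated 3 and 4. In both, each Reactivated score exceeded each scored Late value, and the Early values were the lowest, in libraries that differ in summed score in the same order.

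The list of kinases and phosphatases had the highest share, 9 of 37 or 24.3%. Among them were the MAP kinase pathway genes Map2k1, Map3k1, Map3k2, Map3k12, Map4k4 and Mapk9, the cyclic AMP-dependent kinase subunit Prkacb, and the Akt phosphatase Phlpp1. Phlpp1, whose fragment at chr1:108071535-108073759 was shared with Pign, scored 99, 174 and 107 in Early 1, 3 and 4, 174 and 120 in Late 3 and 4, and 773 and 955 in Reactivated 3 and 4. Per listed fragment the list stood at 12 of 387, or 3.10%, against 1.89% of all listings. Shares of lists were not tested.

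Chromatin regulators had 6 of 37, with the remodellers Chd2 and Chd5, the deacetylase Hdac5, the DNA demethylase Tet2 and the Polycomb proteins Cbx2 and Cbx8, which shared a single fragment. Chd2 at chr7:80684323-80684770 was scored in all 4 Early libraries, at 60, 109, 217 and 100, with 60 and 31 in Late 3 and 4 and 843 and 820 in Reactivated 3 and 4. Cohesin and CTCF genes had 0 of 6. Ubiquitin and proteasome genes had 7 of 42, led by Skp1a and Usp2, a deubiquitinase that scored 76 and 42 in Early 1 and 3, 502 and 416 in Late 3 and 4, and 507 and 583 in Reactivated 3 and 4. The SCF partner Rbx1 was also on the list, with 399 in Early 2, 547 and 369 in Late 3 and 4, and 971 and 1222 in Reactivated 3 and 4.

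Mitochondrial respiration genes had 5 of 30, translation genes 5 of 44 and RNA-processing genes 4 of 34. Atp5h, an ATP synthase subunit, scored 38, 484 and 275 in Early 1, 3 and 4, 765 and 574 in Late 3 and 4, and 1015 and 1094 in Reactivated 3 and 4 at chr11:115276694-115277492. The ribosomal protein gene Rpl36 shared with Cul9, Ptprs and Safb2 a fragment that scored 493, 153 and 82 in Early 1, 3 and 4, 15, 219 and 132 in Late 1, 3 and 4, and 2944 and 2587 in Reactivated 3 and 4. Cpeb4, which regulates translation of stored messages, scored 49 and 30 in Early 3 and 4, 2632 and 1679 in Late 3 and 4, and 495 and 578 in Reactivated 3 and 4. Unlike Atp5h and Rpl36, Cpeb4 was highest in the Late pair.

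Markers of other cell types were not absent from the pattern. They had 2 of 22 promoters, the astrocyte gene S100b and the oligodendrocyte gene Olig2, and neuron markers 1 of 18, the tubulin gene Tubb3. Olig2 at chr16:91267099-91274334 scored 192 in Early 1, 4, 7, 635 and 533 in Late 1 to 4, and 901 and 1018 in Reactivated 3 and 4. Tubb3 shared its fragment with Chmp1a and Spire2 and scored 103, 7 and 7 in Early 1, 3 and 4, 488 and 320 in Late 3 and 4, and 1013 and 1052 in Reactivated 3 and 4. A contact does not show that a gene is expressed, and the part of other cells in these scores was not tested.

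**Figure D5:**
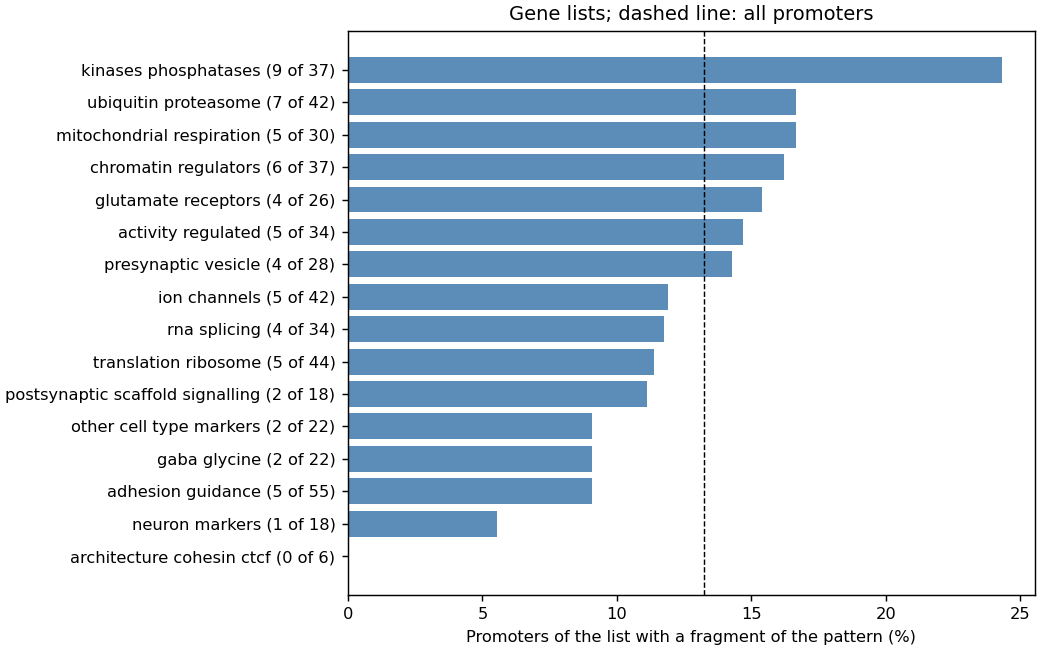
Share of promoters in each gene list (percent, horizontal bars) that had at least 1 of the 469 fragments, with the numbers beside each list name and a dashed line at the 13.3% of all promoters. Kinases and phosphatases reach 24.3%, and the cohesin and CTCF list of 6 promoters has none.

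The rule asks for a score in Early, Late and Reactivated but not for a difference between them, so these 3 groups were compared. All distinct fragments entered 1 limma fit on asinh(score) with 0 for no score. Late against Early, by the group names and the protocol, compares the collection days after conditioning with that hours after it. None of the 469 passed an adjusted p of 0.05 in either direction, with 0.00% of all fragments called higher and 0.00% lower. At an unadjusted p under 0.05 in limma, 0 were higher and 1 was lower, against 10.0% and 5.86% of all fragments. A fragment scored in only 1 of the compared groups counts among all fragments, and the rule leaves such fragments out of the 469. The lowest limma adjusted p of a member was 0.285. By mean, 11147 of all fragments were higher and 11601 lower in Late, with a median difference of 0 on the asinh scale. Among the 469, 270 were higher and 198 lower, with a median of 0.33. That median became -0.10 without Early 2, -0.20 without Late 3 and -0.22 without Late 4, and it reached 0.94 without Late 1 or without Late 2.

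In Late against Early, Ero1l had the largest upward difference, 4.96 (SE 2.93, limma adjusted p 0.375), from a mean asinh score of 3.20 ± 3.72 (SD, n = 4) in Early to 8.16 ± 0.23 (SD, n = 4) in Late. It was the only member whose 4 Late values all lay above its 4 Early values, a separation seen in 0.270% of all fragments. No member showed the reverse, seen in 0.0540%. These shares, and those of separations given below, include fragments scored in only 1 of the compared groups, which the rule leaves out. Map2k1, the MEK1 kinase gene, had 2 in Early 3 and 1105 and 910 in Late 3 and 4, a difference of 3.44. The fragment of Ccdc155 and Ppfia3, a presynaptic scaffold gene, had 3 in Early 3 and 1322 and 859 in Late 3 and 4. Lower in Late by mean was the fragment of Fam53b and the deubiquitinase gene Zranb1, with 164, 451 and 234 in Early 1, 3 and 4 and 3 in Late 4, a difference of -4.23 (limma adjusted p 0.285). Pak1, an actin-regulating kinase gene, had 432, 585 and 319 in Early 2 to 4 and 3 in both Late 3 and Late 4, a difference of -4.16. Pcdh11x followed with -3.70. None of these differences passed the test.

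Reactivated against Late, by the group names and the protocol, asks what renewed exposure to the cue changed. Again 0 of the 469 passed, with 0.00% of all fragments called in each direction by limma. At an unadjusted p under 0.05, 11 were higher and 2 lower, against 16.6% and 10.4% of all. By mean, 10676 of all fragments were higher and 10801 lower in Reactivated, with a median of 0. Among the 469, 340 were higher and 129 lower, with a median of 0.64 that fell to 0.15 with scores scaled by each library's median. The median turned to -0.15 without Late 1 or without Late 2, -0.40 without Reactivated 3 and -0.48 without Reactivated 4, and it reached 1.53 without Late 3, 1.48 without Late 4 and 1.81 without Reactivated 1 or without Reactivated 2. Without Reactivated 1 and 2, which list 32 and 335 fragments, it was 4.07. In limma 101 of the 469 then passed, 99 of them higher, beside 8207 of all 33334 fragments. Without Reactivated 1 alone 5 of the 469 passed, beside 4760 of all 33334, and without Reactivated 2 alone 6, beside 4784. The call for most of the 101 thus depended on leaving out both.

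The fragment shared by Dnajc19, Prkacb and Ttll7 at chr3:146486259-146489808 had the largest upward difference in Reactivated against Late, 4.20 (SE 1.90, limma adjusted p 0.137). It scored 68 in Early 1, 2 in Late 4, and 4463 and 4610 in Reactivated 3 and 4. Fam120a, an RNA-binding protein gene, scored 168 in Early 1, 2 in Late 3, and 3734 and 4158 in Reactivated 3 and 4. Nmt1, an N-myristoyltransferase gene, scored 154 and 84 in Early 3 and 4, 3 in Late 4, and 3862 and 4345 in Reactivated 3 and 4. In these 3 the large scores came from Reactivated 3 and 4 only. Zfp59 had the largest downward difference, -5.74 (SE 2.70, limma adjusted p 0.151). The fragment of Cd300lg with the synaptic scaffold gene Mpp2 had 78, 85, 432 and 282 in Late 1 to 4 and 3 in Reactivated 3, a difference of -5.37 (limma adjusted p 0.132), and Ttll3 followed with -3.998. In 2 members, that of Cd300lg with Mpp2 and one of the calcium-binding copine gene Cpne6, every Reactivated value lay below every Late value, a separation seen in 0.330% of all fragments. The reverse, seen in 0.00300% of all fragments, was not possible for a member, since Reactivated 1 scored none of them.

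Reactivated against Early gave 0 of 469 past the limma threshold, beside 0.00% of all fragments in each direction. At an unadjusted p under 0.05, 3 were higher and 1 lower, against 15.9% and 6.02% of all. By mean, 10611 of all fragments were higher and 11247 lower in Reactivated, with a median of 0. Among the 469, 349 were higher and 120 lower, with a median of 1.16, or 0.54 with scaled scores. It was 0.18 without Reactivated 3, 0.13 without Reactivated 4 and 2.26 without Reactivated 1 or without Reactivated 2. Without Reactivated 1 and 2 the median was 4.50 and 127 of the 469 passed in limma, 126 of them higher, beside 8120 of all 33334 fragments. Leaving out Reactivated 1 alone gave 3 of the 469, beside 4507 of all 33334, and Reactivated 2 alone 4, beside 4536. Each comparison shares its libraries with another, so the 3 are not independent.

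The fragment of Prrg4 and Qser1 scored 5 in Early 3, 10 in Late 2, and 5488 and 5350 in Reactivated 3 and 4, a difference from Early of 4.07 (SE 1.88, limma adjusted p 0.170). Ccdc37 scored 3 in Early 3, 3 and 2 in Late 3 and 4, and 3938 and 4072 in Reactivated 3 and 4. Ndst4, a heparan sulphate sulphotransferase gene, scored 2 in Early 3, 2 in Late 3, and 2988 and 3375 in Reactivated 3 and 4. Membership of these 3 thus rested on Early scores of 5 or less. Atmin had the largest downward difference, -6.10 (SE 2.75, limma adjusted p 0.157), from 7.87 ± 0.26 (SD, n = 4) in Early to 1.77 ± 3.54 (SD, n = 4) in Reactivated on the asinh scale. Ubfd1 followed with -4.12 and Pcdh11x with -3.74, and the latter turned to 0.16 without Reactivated 1 and 2. In 2 members, Atmin and Ubfd1, every Reactivated value lay below every Early value, a separation seen in 0.0990% of all fragments. The reverse, seen in 0.00300%, was again not possible for a member, since Reactivated 1 scored none of them.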

How the data were processed

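Promoter-capture Hi-C had been made from 15 libraries of sorted mouse hippocampal nuclei. Per the file headers, the authors deposited an interaction score per promoter, fragment and library, as whole numbers of 2 or more with a dot for none. The build is mm9, per the submitters' processing notes. Program, aligner, filters and any normalization remain not given in the sources used here, so depth behind a score is unknown and no counting interval is given. Day and recall in the treatment labels conflict with the protocol, and groups were taken from titles.

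Listings at the same position were joined into 33334 fragments. The listings disagreed in score for 1 of these, which was not among the 469, and the higher was taken. The comparisons used R 4.3.3 with limma 3.58.1 and statmod 1.5.0, with robust empirical Bayes and a variance trend, on asinh(score), 15 libraries in 1 fit, Benjamini-Hochberg over all fragments and no filter. The method was tested on simulated data made from shuffled scores. Changed fragments there had high scores in every library of 1 group and none in the other. The 469 differ from that, so the simulation does not show what the method would detect among them. Other values came from numpy 2.4.6, scipy 1.17.1 and pandas 2.3.3 under Python 3.11.15, and figures from matplotlib 3.10.9. Of the 587 promoter names, 561 matched a RefSeq symbol and 25 a synonym.

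Fragments were named if among the 12 in most libraries, at the 6 promoters with most, up to 2 per gene list for 16 lists, or the 3 largest rises and falls per comparison. Some named by this rule are not reported here. Predicted genes, clone names, microRNAs and olfactory receptors were skipped, and Arc and Bdnf were looked up. Fragments at the edge of the rule, at the neuropeptide Y receptors, and above the 75th percentile were chosen after their values were seen. The fragments, lists and tests were chosen with earlier results of these data known. Alternatives covered scale, filter, scaling, variance trend, unit, replicate block, library sets, minimum score and left-out libraries.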

Additional observations from a re-analysis of the deposited data

Results flagged for a closer look

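Within groups of 4 libraries, a library was marked when its gap to the nearest other was large against the range of the group. This was so in 21 of 78 groups tested. A rate of about 1 in 20 by chance holds for normally distributed values. Many libraries here have no score and the fragments were chosen by their scores, so that rate is no reference for the 21. Where 3 libraries are at no score and 1 is not, the gap is the whole range, so sparse scores are always marked.

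Early replicate 2 was the highest for Ttll3 at 1191 and for Adam29 at 3905. Early replicate 3 was the highest for Atmin at 1921. Reactivated replicate 2 held the only Reactivated score of Zfp59, 388, and of Atmin, 594. A single Early score was listed for Map2k1 (2), Ccdc155 with Ppfia3 (3), Prrg4 with Qser1 (5), Ccdc37 (3) and Ndst4 (2), all in replicate 3, and for Dnajc19 with Prkacb and Ttll7 (68) and Fam120a (168), both in replicate 1. A single Late score was listed for Fam53b with Zranb1 (3), Dnajc19 with Prkacb and Ttll7 (2) and Nmt1 (3) in replicate 4, for Fam120a (2) and Ndst4 (2) in replicate 3, and for Prrg4 with Qser1 (10) in replicate 2. The Reactivated score of Cd300lg with Mpp2 was 3, in replicate 3 alone.

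Of the libraries themselves, Early replicate 2 scored the fewest of the 469 fragments in its group, 83, and Reactivated replicate 1 had a share of 0% where the other 3 had 3.88% to 4.40%.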

How the results depend on the processing

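The number of fragments was 168 with 2 libraries required per group and 295 with a single promoter. Leaving out 1 library at a time gave 321 (without Early replicate 1) to 627 (without Basal replicate 3). The counts missing from Early, Late and Reactivated were 91, 82 and 76 with 2 libraries required, and 225 had 1 promoter in the first. Leaving out 1 library gave 162 to 452, 257 to 479 and 266 to 595, lowest without Basal replicate 3. The count missing from Late was 293 without Early replicate 1.

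Fragments past the limma threshold in Late against Early, Reactivated against Late and Reactivated against Early numbered 0 in each. They were 55, 60 and 5 without the variance trend, none of them among the 469, and 56, 8207 and 8120 without Reactivated replicates 1 and 2. Leaving out 1 library gave 0 to 84, 0 to 4784 and 0 to 4536. In the last 2 comparisons these were 4760 and 4507 without Reactivated replicate 1, and 4784 and 4536 without Reactivated replicate 2. The counts were 68, 68 and 8 without Basal replicate 3, and 84, 58 and 33 without Early replicate 1. The cause was not tested. Of 414 alternative values of the 18 named differences, 392 kept direction and side of the threshold. Another 21 passed it, all with Reactivated replicate 1, 2 or both left out. The Pcdh11x difference in Reactivated against Early reversed to 0.16 without both of these replicates. The 18 were picked as the largest differences in these same data, and none passed in the main fit. The 392 are therefore no sign of robustness.

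With the replicate number as a block, 0, 0 and 0 fragments passed. With each library set as its mean, which leaves fewer units per group, 0, 0 and 0 passed. An unadjusted limma p under 0.05 was then found for 25, 4 and 2 fragments, 0 of them among the 469. In the main fit these numbered 5287, 9025 and 7313. Same-numbered libraries of different groups had correlations of -0.056 to 0.072 over 21 pairs, 0 of them above 0.1. Of the 15 libraries, 7 correlated best with a library of their own number. Whether equal numbers share a batch is not stated and was not tested. The 32 fragments of Reactivated 1 limit what that library shows of any contact.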
